A study of Homo sapiens with 4 samples.

Results

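Accessible chromatin was described at 9 genes of the epithelial-mesenchymal transition (EMT): the transcription factor genes SNAI1, SNAI2, ZEB1, ZEB2 and TWIST1, the epithelial adhesion gene CDH1, and the mesenchymal genes VIM, CDH2 and FN1. The genes were chosen by name, and a peak was counted for a gene when it overlapped the gene body or the 10 kb upstream of it in the GENCODE annotation of GRCh38. By this rule the 9 genes had 24 of 59629 listed peaks in WT and 30 of 67470 in WT-IFN-γ. In sgFLI1 they had 26 of 63203, and in sgFLI1-IFN-γ 24 of 59923. Merged over the 4 lists wherever peaks shared a base, they made 35 regions of 93211. The data are ATAC-seq, in which a transposase inserts adapters into open DNA, from HK1, an established line of human nasopharyngeal carcinoma cells. WT cells with intact FLI1 and FLI1-KO cells (sgFLI1), in which a guide RNA targeted the ETS transcription factor gene FLI1, were kept without cytokine or given interferon-γ (IFN-γ), for a day according to the study's methods. Whether the FLI1-KO cells were a clone or a pool was not given in the sources used here. Each of the 4 groups held 1 library, so differences between groups had no replicate check, and no test between groups was made.

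During EMT, epithelial cells give up E-cadherin, the junction protein encoded by CDH1, and take on motility and matrix contacts. The zinc finger proteins of SNAI1 (Snail), SNAI2 (Slug), ZEB1 and ZEB2 bind E-box sequences and repress CDH1, and TWIST1 is a basic helix-loop-helix factor of the same programme. VIM encodes vimentin, an intermediate filament protein, CDH2 encodes N-cadherin, and FN1 encodes fibronectin of the extracellular matrix. Open chromatin at a promoter or enhancer marks where factors can bind and is not a measure of transcription.

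The depth behind each value is the number of sequenced tags over the highest point (summit) of a peak, a whole number recovered from the fold enrichment and the −log10 p of that peak. Tags were divided by the tag density of the library, which was 8.04 and 8.84 tags per kb in WT cells without and with IFN-γ and 6.93 and 6.86 in FLI1-KO cells. A ratio between libraries was further centred on the median of all shared regions, and its 95% interval is an exact binomial one for counting error only. A shared region was called higher or lower at 1.5-fold or more with an interval that left out 1. A region missing from a list was judged by the lower 95% Poisson bound of its tags, scaled to that library by tag density alone, without the centring. It was called lower there when this bound still reached the number of tags needed for listing. Where the bound fell short, the absence was not established at this depth, although the scaled tags themselves could exceed the number needed. The study's methods also name a filter on the irreproducible discovery rate (IDR), and whether the lists were made before or after it was not given in the sources used here. A peak removed by such a filter would be missing for a reason that the depth criterion does not cover. As a check of the cell type, promoters of the epithelial markers EPCAM, KRT8, KRT18 and DSP held a peak in every library, those of KRT14 and TP63 in none, and those of the 5 T cell and leukocyte markers in none. KRT5, a keratin of squamous epithelium, had 26 tags in WT, no listed promoter peak in WT-IFN-γ, and 51 and 50 tags in the FLI1-KO libraries (sgFLI1 to WT ratio 2.20, 1.35 to 3.68). Marker values are those of the tallest peak within 1 kb of any start site, which need not be the same region in each library. Of 6 fibroblast markers 3 had a promoter peak in all 4 libraries, among them COL1A1 with 132 to 172 tags. Of 4 endothelial markers none had a promoter peak in all 4 libraries, although PECAM1 had one in both FLI1-KO libraries (32 and 31 tags) and in neither WT library, and CDH5 had one in WT (18 tags) and sgFLI1-IFN-γ (17 tags). No peak lay within 1 kb of a FLI1 start site in either FLI1-KO library, against 2 in each WT library. These were weak, with at most 12 tags in WT and 22 in WT-IFN-γ. A peak of 12 tags in WT scales to a lower bound of 5.34 in sgFLI1, below the 7 needed, so the untreated absence was not beyond depth. A peak of 22 tags in WT-IFN-γ scales to 10.7 in sgFLI1-IFN-γ, above the 7 needed where the local background is low. The local background of the FLI1 peaks is not given here, so the absence with IFN-γ was not judged. Over the FLI1 gene and 10 kb upstream, WT cells had 4 and 5 peaks without and with IFN-γ, and FLI1-KO cells 5 and 4. A peak list does not show whether the gene was cut.

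The results turned on a small number of regions, and 201 bp around the summit of 5 of them, at the cadherin genes, are shown here because they were listed in only some libraries or differed by genotype. They are GRCh38 sequence written along the strand of the gene. Capitals mark matches on either strand to the E2-box CAGGTG, to the AP-1 motif TGANTCA, to the gamma-activated sequence (GAS) TTCNNNGAA, or to the ETS motif CCGGAAGT. No matches of different motifs overlapped in the 35 regions.
CDH1, intron 2, listed in both WT libraries (chr16:68756370-68756570, plus strand): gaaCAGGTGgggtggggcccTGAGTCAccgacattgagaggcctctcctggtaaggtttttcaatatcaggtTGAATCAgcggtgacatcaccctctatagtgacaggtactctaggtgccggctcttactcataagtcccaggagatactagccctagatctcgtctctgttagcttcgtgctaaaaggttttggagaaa
CDH1, intron 2, listed in both FLI1-KO libraries (chr16:68760962-68761162, plus strand): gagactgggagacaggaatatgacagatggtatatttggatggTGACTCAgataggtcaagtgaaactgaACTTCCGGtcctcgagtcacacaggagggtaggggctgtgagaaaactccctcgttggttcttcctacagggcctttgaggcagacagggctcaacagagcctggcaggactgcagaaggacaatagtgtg
CDH1, intron 2, listed in WT-IFN-γ alone (chr16:68765001-68765201, plus strand): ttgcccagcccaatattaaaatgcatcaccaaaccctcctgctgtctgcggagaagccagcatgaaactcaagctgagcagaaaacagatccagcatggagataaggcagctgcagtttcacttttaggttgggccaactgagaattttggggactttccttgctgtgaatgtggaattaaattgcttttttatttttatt
CDH1, intron 6, listed in both FLI1-KO libraries (chr16:68811465-68811665, plus strand): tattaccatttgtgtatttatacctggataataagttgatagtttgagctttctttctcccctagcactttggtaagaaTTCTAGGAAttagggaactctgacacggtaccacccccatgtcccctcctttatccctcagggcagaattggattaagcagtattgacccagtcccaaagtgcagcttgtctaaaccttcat
CDH2, intron 2, listed in all 4 libraries (chr18:28115165-28115365, minus strand): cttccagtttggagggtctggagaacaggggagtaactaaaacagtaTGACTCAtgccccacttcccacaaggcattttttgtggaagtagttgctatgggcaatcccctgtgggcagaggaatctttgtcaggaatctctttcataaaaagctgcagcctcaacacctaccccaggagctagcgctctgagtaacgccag

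All 9 EMT genes, mesenchymal and epithelial, had a peak within 1 kb of an annotated start site in every library, as did 64.5% of protein-coding genes. Of the 35 regions, 17 (48.6%) were listed in all 4 libraries, against 43.9% of all regions of the genome. Another 3 were listed in 3 libraries, 7 in 2 and 8 in 1. The regions listed in fewer than 4 libraries were weak, with 8 to 54 tags at most and a median of 15.5. By annotation of the canonical transcript, 20 summits lay in introns, 3 in exons, 10 upstream and 2 beyond the transcript's end but within the annotated gene. At the canonical transcription start site (TSS) itself a peak was listed in all 4 libraries at 4 of the 9 genes (SNAI1, SNAI2, ZEB1 and VIM), in some libraries at 3 (TWIST1, CDH2 and FN1) and in none at 2 (CDH1 and ZEB2). For CDH1 and ZEB2 the tallest peak counted within 1 kb of any start site lay 63195 and 2898 bp downstream of the canonical TSS. In sgFLI1-IFN-γ no CDH1 peak lay within 1 kb of the canonical TSS. Among 20033 protein-coding genes the TSS was covered in all 4 libraries at 52.5% and in none at 41.0%.

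**Figure D1:**
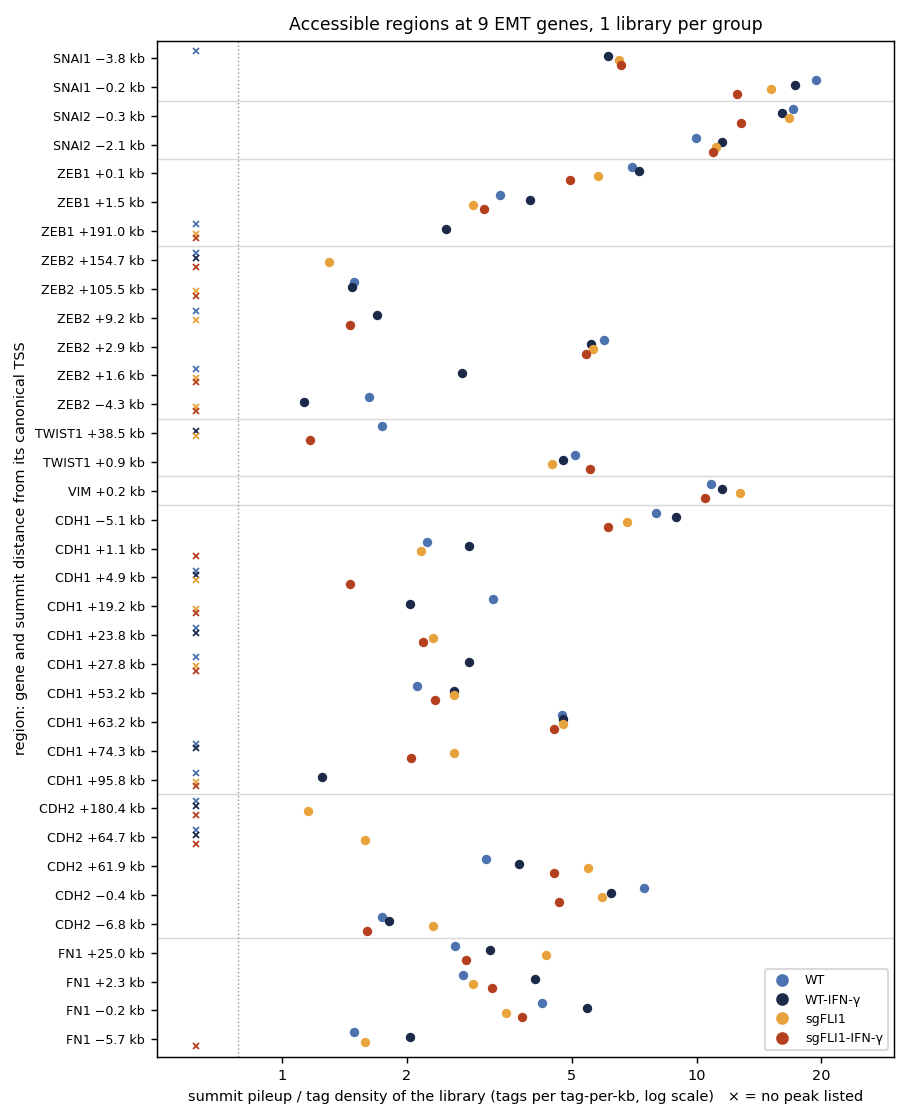
Summit pileup divided by the tag density of the library (horizontal log axis) for the 35 regions (rows, named by gene and summit distance from the canonical TSS), with a coloured point for each library and a cross where no peak was listed. The SNAI1 and SNAI2 promoters stand farthest right, and most crosses belong to regions below about 3 on the axis.

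Counted over the 9 genes, 6 regions were gained and 1 lost from the lists with IFN-γ in WT cells, and 3 were gained and 5 lost in FLI1-KO cells. In WT cells 6 of 29 regions were listed after IFN-γ alone (20.7%, against 22.2% of all regions in that comparison) and 1 was listed in untreated cells alone (3.45%, against 12.4%). Of these, 3 gains were called beyond depth (9.74% of all regions were called higher), at SNAI1, ZEB1 and CDH1, and the loss, at TWIST1, was called as well (5.41% of all regions were called lower). In FLI1-KO cells 3 of 28 regions were listed with IFN-γ alone, against 14.6% of all regions, and 5 without it alone, against 19.1%. None of the 28 was called higher, against 3.37% of all regions, and none lower, against 4.79%. The share gained in WT was near that of the genome, and 28 regions are too few to set the lack of calls in FLI1-KO cells apart from shares this small.

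Between genotypes more regions were called, and CDH1 held 3 of the 5 calls without IFN-γ and 4 of the 6 with it. Without IFN-γ, 6 of 29 regions were listed in sgFLI1 alone (20.7%, against 21.2% of all regions) and 4 in WT alone (13.8%, against 16.9%). Calls went to 4 regions that were higher in sgFLI1 (11.4% of all regions were) and to 1 that was lower (9.63% of all regions were). With IFN-γ, 4 of 33 regions were listed in sgFLI1-IFN-γ alone, against 15.0% of all regions, and 10 in WT-IFN-γ alone (30.3%, against 24.7%). These numbers count as 2 a CDH1 region that WT-IFN-γ lists as 2 peaks, and as merged regions 9 of 32 were in WT-IFN-γ alone. Of these 33, 2 were called higher in the FLI1-KO cells, against 8.09% of all regions, and 4 lower, against 12.3%. These counts are small, and the shares were of the same order as those of the genome.

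SNAI1 (ENSG00000124216.4, chromosome 20, 49982980 to 49988886, plus strand) had the tallest promoter peak of the 9 genes. Its summit lay 200 bp upstream of the TSS and held 156 and 153 tags in WT cells without and with IFN-γ, and 105 and 86 in FLI1-KO cells. Both WT libraries stood above both FLI1-KO libraries, also per tag density (19.4 and 17.3 against 15.1 and 12.5). The ratio of FLI1-KO to WT was 0.755 (0.584 to 0.973) without IFN-γ and 0.735 (0.557 to 0.963) with it. Both intervals left out 1, but neither ratio reached 1.5-fold, so no call was made. The median log2 ratio of chromosome 20 was −0.03 and −0.01 in these comparisons, and with IFN-γ the SNAI1 ratio did not change in either genotype beyond counting error (0.937, 0.745 to 1.18, in WT and 0.910, 0.676 to 1.22, in FLI1-KO).

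A further SNAI1 region, 3787 bp upstream of the TSS (chromosome 20, 49979120 to 49979473), was missing from untreated WT only. It held 54 tags in WT-IFN-γ and 45 in each FLI1-KO library. Scaled to the depth of WT, the lower bounds were 36.9 tags from WT-IFN-γ and 38.1 from sgFLI1, above the 31 and 29 tags needed for listing there. The region was thus called higher in WT after IFN-γ and higher in sgFLI1 than in WT. It stood on a high local background of 12.5 to 16.6 tags in the 3 libraries that list it, and the local background in WT at this place is not given by the list. Between the FLI1-KO libraries it did not differ beyond counting error (1.11, 0.718 to 1.72).

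SNAI2, the gene of Slug (ENSG00000019549.13, chromosome 8, 48917598 to 48921740, minus strand), had 2 regions, each listed in all 4 libraries. The promoter region, with its summit 287 bp upstream of the canonical TSS, held 137 and 142 tags in WT cells without and with IFN-γ, and 116 and 88 in FLI1-KO cells. Per tag density sgFLI1-IFN-γ was lowest at 12.8, and the others stood at 17.0, 16.1 and 16.7. The FLI1-KO to WT ratio was 0.950 (0.735 to 1.23) without IFN-γ and 0.810 (0.614 to 1.06) with it. The region 2136 bp upstream held 80, 102, 77 and 75 tags (both WT libraries, then both FLI1-KO libraries, the untreated one first in each pair, an order kept for all further sets of 4 values), and each of its 4 ratios lay between 0.961 and 1.22 with an interval that held 1.

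ZEB1 (ENSG00000148516.23, chromosome 10, 31318495 to 31529814, plus strand) was open at its TSS in all 4 libraries, with 56 and 64 tags in WT cells without and with IFN-γ, and 40 and 34 in FLI1-KO cells. Where in this broad region the summit fell varied from library to library by up to 660 bp. The FLI1-KO libraries were lower, at ratios of 0.801 (0.520 to 1.22) without IFN-γ and 0.694 (0.444 to 1.07) with it, and both intervals held 1. The start region also lies over the antisense gene ZEB1-AS1, and ATAC-seq does not separate the strands. A weaker region 1475 bp downstream, in intron 1, held 27, 35, 20 and 21 tags.

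In intron 4 of ZEB1, 190981 bp downstream of the TSS, a region was listed in WT-IFN-γ alone, with 22 tags over a local background of 2.20. The lower bounds were 12.5 tags at the depth of WT and 10.7 at the depth of sgFLI1-IFN-γ, where 8 and 7 tags would have been listed. It was called higher in WT after IFN-γ and lower in sgFLI1-IFN-γ than in WT-IFN-γ.

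ZEB2, the paralogue of ZEB1 (ENSG00000169554.23, chromosome 2, 144364364 to 144521057, minus strand), had 6 regions, of which 1 was in all 4 lists. That region, in intron 2 with its summit 2898 bp downstream of the canonical TSS, held 48 and 49 tags in WT cells without and with IFN-γ, and 39 and 37 in FLI1-KO cells. Its ratios lay between 0.912 and 1.05 over the 4 comparisons, each with an interval that held 1. The canonical TSS was in no peak, and a peak over the local background of the nearest region would have needed 19 tags in each WT library and 14 or 15 in the FLI1-KO libraries. The other 5 regions held 9 to 24 tags, and their absence from the remaining lists was not beyond depth in any comparison. They include a region 105479 bp downstream (12 and 13 tags) and one 4350 bp upstream (13 and 10 tags) that were listed in both WT libraries and in neither FLI1-KO library.

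TWIST1 (ENSG00000122691.13, chromosome 7, 19020991 to 19117636, minus strand) had a region over coding exon 1 in every library, with its summit 903 bp from the TSS. It held 41 and 42 tags in WT cells without and with IFN-γ, and 31 and 38 in FLI1-KO cells. The TSS itself fell inside the peak only in the IFN-γ libraries of both genotypes, while the height differed by less than counting error in all 4 comparisons. The ratio with IFN-γ was 0.979 (0.621 to 1.54) in WT and 1.36 (0.825 to 2.26) in FLI1-KO cells. A region 38477 bp downstream of the TSS, past the canonical transcript, held 14 tags in WT and 8 in sgFLI1-IFN-γ and was missing from the other lists. Its loss after IFN-γ in WT was called narrowly, with a lower bound of 8.41 tags against the 8 needed.

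CDH1 (ENSG00000039068.20, chromosome 16, 68737292 to 68835537, plus strand), the epithelial member, had the most regions, 10, and only 3 of them were in all 4 lists. Its canonical TSS was in no peak in any library, and the nearest region began 916 bp downstream, over coding exon 2. That region, with its summit 1069 bp from the TSS, held 18 and 25 tags in WT cells without and with IFN-γ and 15 in sgFLI1, and it was missing from the fourth list. At the local background found there, a peak at the TSS would have needed 14 tags in WT, 13 after IFN-γ and 11 in sgFLI1, so accessibility below that level was not detectable.

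The strongest CDH1 region lay 5079 bp upstream of the TSS (chromosome 16, 68731741 to 68732921) and held 64 and 79 tags in WT cells without and with IFN-γ, and 47 and 42 in FLI1-KO cells. Its FLI1-KO to WT ratio was 0.824 (0.553 to 1.22) without IFN-γ and 0.695 (0.466 to 1.02) with it, a log2 ratio of −0.28 and −0.53. In these comparisons the median log2 ratio of all chromosome 16 regions was −0.28 and −0.27, so that the untreated difference was the size of that of the chromosome. A copy number difference and a difference in accessibility cannot be told apart from peak heights. The region 63195 bp downstream, in intron 2 near an alternative TSS of CDH1, held 38, 42, 33 and 31 tags, and the one 53197 bp downstream held 17, 23, 18 and 16. All ratios of these 2 regions had intervals that held 1.

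Inside the CDH1 introns some weak regions were listed in both libraries of a single genotype and in neither of the other. The intronic regions at 53197 and 63195 bp were in every list, and those at 4874, 27809 and 95753 bp in a single library each. A region 19178 bp downstream of the TSS, in intron 2, held 26 tags in WT, or 18 after IFN-γ, and was in neither FLI1-KO list. In WT-IFN-γ it was split into 2 peaks. Its absence from sgFLI1 was called (lower bound 14.6 tags against the 11 needed), and its absence from sgFLI1-IFN-γ was not (8.28 against 11). Its sequence above carries 1 E2-box and 2 AP-1 motifs.

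The converse held for regions 23770 bp and 74273 bp downstream of the TSS, in introns 2 and 6, which were listed in both FLI1-KO libraries and in neither WT library. The region at 23770 bp held 16 tags in sgFLI1 and 15 after IFN-γ, with lower bounds of 10.6 and 10.8 tags at the depth of the matching WT library against the 9 needed in each. The region at 74273 bp held 18 and 14 tags, with lower bounds of 12.4 and 9.86 against 9 and 8. Each was called higher in FLI1-KO cells in both comparisons, although the median of the chromosome was lower in them. The 23770 bp sequence carries 1 AP-1 and 1 ETS motif, and the 74273 bp sequence carries 1 GAS motif. Between the FLI1-KO libraries the ratios were 1.04 (0.480 to 2.25) and 0.864 (0.398 to 1.84).

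A region 27809 bp downstream of the CDH1 TSS, in intron 2, was listed in WT-IFN-γ alone, with 25 tags. It was called higher in WT after IFN-γ (lower bound 14.7 tags against 11) and lower in sgFLI1-IFN-γ than in WT-IFN-γ (12.6 against 10). Its sequence carries none of the 4 motifs, GAS included. The exon 2 region with 25 tags in WT-IFN-γ was also called lower in sgFLI1-IFN-γ (12.6 against 12), but not when the tags were scaled by the median of regions within 5 Mb of CDH1 (10.6 against 12), a setting added after the data were seen. The remaining regions, at 4874 and 95753 bp, held 10 and 11 tags in 1 library each and were not called.

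**Figure D2:**
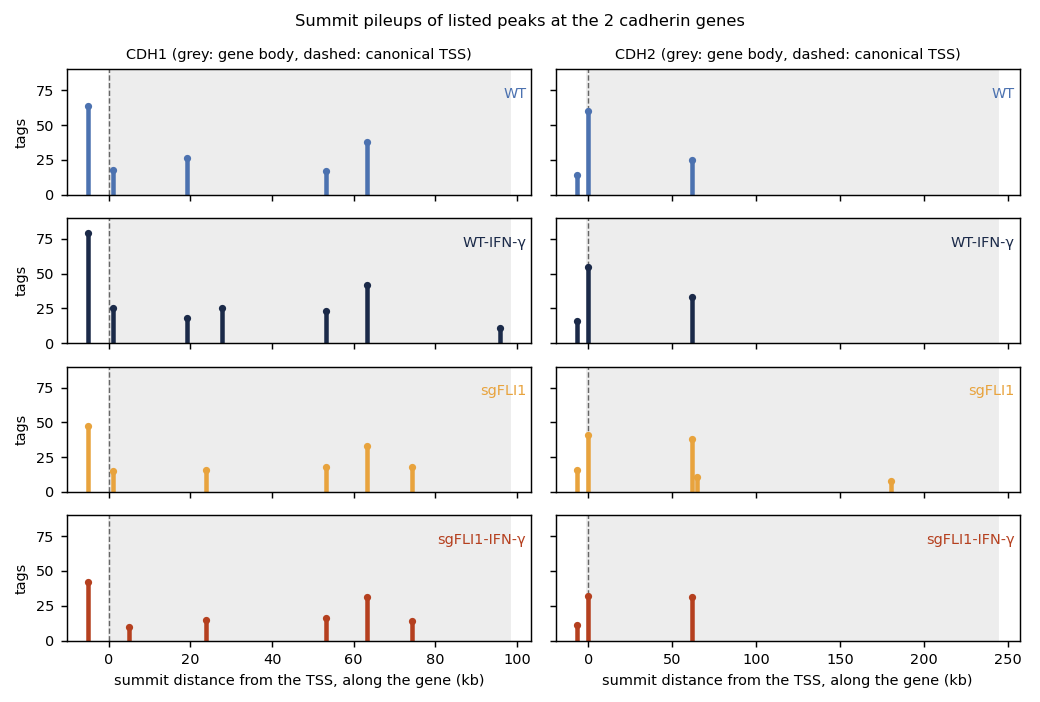
Summit pileup in tags (vertical axis) against the summit distance from the canonical TSS along the gene in kb (horizontal axis) for CDH1 on the left and CDH2 on the right, with a row for each library and grey for the gene body. At CDH1 the stem at 19.2 kb stands in the WT rows alone and those at 23.8 and 74.3 kb in the FLI1-KO rows alone, while those at 53.2 and 63.2 kb stand in every row, and at CDH2 the 3 tallest stems stand in every row.

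VIM (ENSG00000026025.16, chromosome 10, 17228241 to 17237593, plus strand) had 1 region, which spanned the TSS and held 87 and 102 tags in WT cells without and with IFN-γ, and 88 and 72 in FLI1-KO cells. The summit lay in the 5′ UTR part of exon 1, which VIM-AS1 overlaps. The level did not separate the groups, with per-density values from 10.5 to 12.7 and ratios from 0.909 to 1.13. The WT-IFN-γ and sgFLI1 lists split this region into 2 peaks, so that the number of listed peaks differed while the interval of every ratio held 1.

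CDH2, the gene of N-cadherin (ENSG00000170558.10, chromosome 18, 27932879 to 28177946, minus strand), had 5 regions. At its promoter, with the summit 395 bp upstream of the TSS, it held 60 and 55 tags in WT cells without and with IFN-γ, and 41 and 32 in FLI1-KO cells. The FLI1-KO to WT ratio was 0.767 (0.502 to 1.16) without and 0.760 (0.476 to 1.20) with IFN-γ. On the log2 scale these were −0.38 and −0.40, against medians of −0.29 and −0.34 for all of chromosome 18.

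The CDH2 region 61865 bp downstream of the TSS, in intron 2 (chromosome 18, 28114296 to 28115572), went the other way. It held 25 and 33 tags in WT cells without and with IFN-γ, and 38 and 31 in FLI1-KO cells. The ratio of sgFLI1 to WT was 1.71 (1.00 to 2.95), the only shared EMT region called in any of the 4 comparisons, with a lower bound at the edge of the criterion. With IFN-γ the ratio of the genotypes was 1.23 (0.727 to 2.07). Its sequence above carries 1 AP-1 motif. A region 6808 bp upstream held 14, 16, 16 and 11 tags, and those 64716 and 180425 bp downstream were listed in sgFLI1 alone, with 11 and 8 tags and no call.

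FN1 (ENSG00000115414.21, chromosome 2, 215360440 to 215436073, minus strand) had 4 regions, of which 3 were in all 4 lists. The promoter region, 232 bp upstream of the TSS, held 34 and 48 tags in WT cells without and with IFN-γ, and 24 and 26 in FLI1-KO cells. In WT cells all 4 regions held more tags with IFN-γ, and pooled they gave a ratio of 1.40 (1.06 to 1.85), although no region passed on its own. In FLI1-KO cells the pooled ratio of the 3 shared regions was 1.01 (0.712 to 1.42). The region 5669 bp upstream held 12 and 18 tags in WT cells without and with IFN-γ and 11 in sgFLI1 and was missing from sgFLI1-IFN-γ, which was called against WT-IFN-γ with a lower bound of 8.28 tags against the 8 needed.

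Summed over the shared regions of all 9 genes, the tags of sgFLI1-IFN-γ were lower than those of WT-IFN-γ, at a ratio of 0.860 (0.783 to 0.945). Below 1 lay 16 of 19 regions, against 50.1% of all shared regions of the genome. In the other 3 comparisons the interval of this ratio held 1. The values were 1.07 (0.986 to 1.17) for IFN-γ in WT, 0.973 (0.881 to 1.07) for IFN-γ in FLI1-KO cells and 0.948 (0.863 to 1.04) for sgFLI1 against WT. The interval pools tags of different regions and carries no replicate error. For the 5 transcription factor genes the FLI1-KO to WT ratio was 0.881 (0.775 to 1.00) without IFN-γ and 0.865 (0.764 to 0.978) with it. SNAI1 and SNAI2 weigh most in these sums, with 207 and 244 of the 656 tags of this group in WT-IFN-γ. By gene the 5 ratios with IFN-γ ran from 0.726 at ZEB1 to 1.18 at TWIST1, each with an interval that held 1. For VIM, CDH2 and FN1 it was 1.09 (0.921 to 1.30) and 0.875 (0.732 to 1.04), and for CDH1 0.925 (0.715 to 1.20) and 0.808 (0.613 to 1.06). CDH1 lies on chromosome 16, where the median log2 ratios were −0.28 and −0.27. Centred on the median of each region's chromosome, the ratio of all 9 genes under IFN-γ was 0.89.

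**Figure D3:**
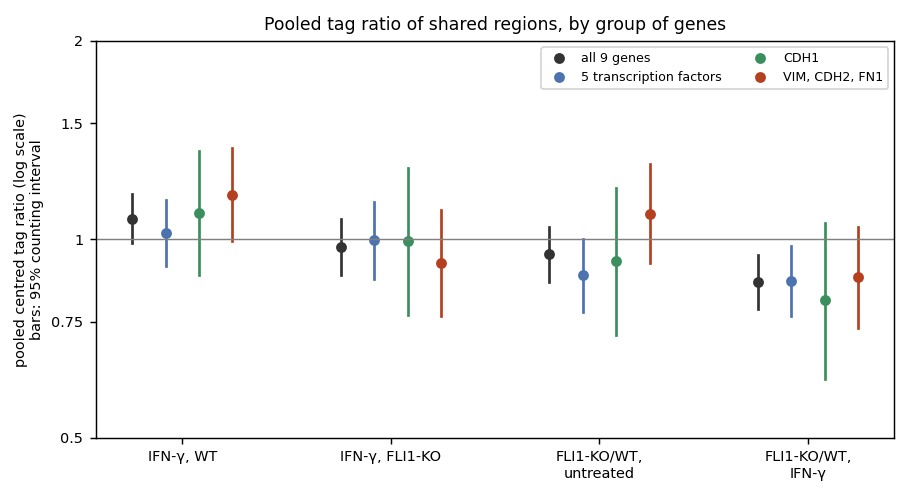
Pooled centred tag ratio of shared regions (vertical log axis) for all 9 genes and 3 groups of them in the 4 comparisons, with bars for the 95% counting interval. In the FLI1-KO to WT comparison under IFN-γ the 4 points lie between 0.808 and 0.875, and the intervals of all 9 genes and of the transcription factor genes stay below 1.

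At the start sites most ratios of FLI1-KO to WT lay below 1. Of the 8 EMT genes with a shared region within 1 kb of the canonical TSS, 7 had a ratio below 1 in sgFLI1 against WT, VIM being the exception, with a median log2 ratio of −0.28. With IFN-γ 6 of 7 were below 1, TWIST1 being the exception, with a median of −0.40. Among all protein-coding genes with such a region the medians were −0.03 and −0.04, and 54.4% and 56.1% were below 1. Of these genes CDH1 and CDH2 lie on chromosomes 16 and 18, whose medians were themselves low. The part that tag depth, local background or peak shape has in this was not tested.

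**Figure D4:**
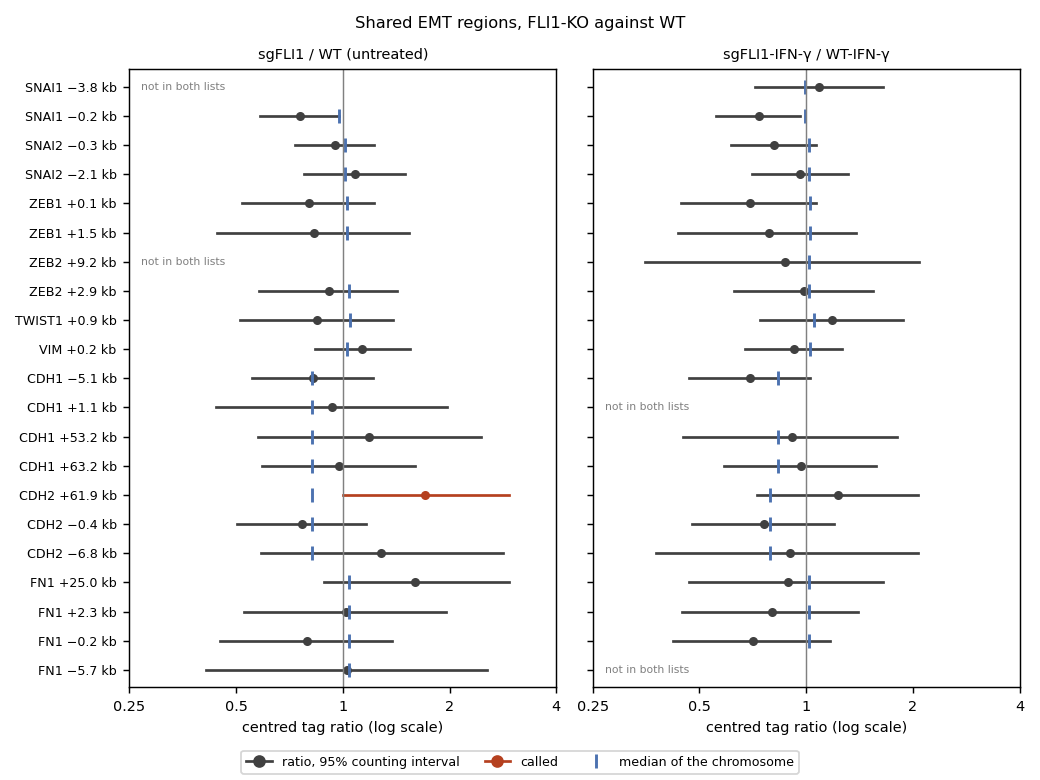
Centred tag ratio of FLI1-KO to WT (horizontal log axis) for each EMT region present in both lists, without IFN-γ on the left and with it on the right, with 95% counting intervals as lines and the median of the chromosome as a blue tick. The SNAI1 promoter region is at 0.755 and 0.735, and the CDH2 region at 61.9 kb, in red, is at 1.71 on the left.

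Wider lists put the 9 genes in context. A peak within 1 kb of any TSS was present in all 4 libraries for 15 of 20 epithelial genes (75.0%) and 18 of 25 mesenchymal and pathway genes (72.0%), against 64.5% of protein-coding genes. A gene's value in a library is that of its tallest such peak, which need not be the same region in every library. At FN1, measured in the same way, this peak lay 232 bp upstream of the TSS in WT (34 tags). In sgFLI1 it lay in intron 13 (30 tags). Among epithelial genes with such a peak in both libraries none was called in any of the 4 comparisons, with 15 or 16 compared in each. Over all regions of the genome, missing ones included, 3.37% to 12.3% were called in a given direction, depending on the comparison. The numbers of calls in both wider lists are too small to be set apart from such shares or from each other. The lowest FLI1-KO to WT ratios there were at OVOL1, a repressor of ZEB1 that held 29, 43, 17 and 19 tags (0.658 and 0.577), EPCAM, an epithelial adhesion gene with 56, 66, 35 and 36 tags (0.701 and 0.713), and ELF3, an epithelial ETS factor with 173, 159, 109 and 92 tags (0.707 and 0.756). At ST14, the gene of the protease matriptase, the ratios were 1.16 (0.812 to 1.65) and 1.44 (0.995 to 2.09). Both intervals held 1 at OVOL1, EPCAM and ST14. At ELF3 both left out 1, but neither ratio reached 1.5-fold. SPINT1, an inhibitor of that protease, was listed in WT (25 tags) and WT-IFN-γ (15 tags) alone, MIR205HG in WT alone (11 tags) and ESRP1 in sgFLI1-IFN-γ alone (8 tags).

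In the mesenchymal list 18 genes with a promoter peak in both libraries were compared in each comparison. Their tallest peaks were used, and these need not be the same region. MMP2, a matrix metalloproteinase, was higher in FLI1-KO cells at ratios of 3.54 (1.86 to 7.20) without IFN-γ and 2.84 (1.56 to 5.39) with it. It held 13 and 17 tags in WT cells without and with IFN-γ, and 41 and 37 in FLI1-KO cells, and it lies on chromosome 16, where most regions were lower in FLI1-KO cells. LOX, a collagen cross-linking enzyme, was lower in sgFLI1 at 0.475 (0.275 to 0.795), with 52, 44, 22 and 23 tags, and was not called with IFN-γ (0.683, 0.394 to 1.16). With IFN-γ FOXC2, TCF4 and TGFBR1 were called lower in FLI1-KO cells, at 0.596, 0.455 and 0.611. They lie on chromosomes 16, 18 and 9, where the median log2 ratio of all regions was itself low, at −0.27, −0.34 and −0.20. The part of the chromosome in these calls was not tested. TWIST2, the paralogue of TWIST1, was called higher with IFN-γ in FLI1-KO cells, from 11 to 26 tags (2.63, 1.25 to 5.89), and held 24 and 25 tags in WT cells. COL3A1 was listed in WT alone (14 tags), and CDH11 and PRRX1 in sgFLI1-IFN-γ alone (10 and 8 tags).

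The sequences of the 35 regions held features that the choice of genes did not use. The median GC content of the 201 bp was 49.8% in the 35 regions and 49.8% over all regions. It was 60.7% in the 17 regions listed in all 4 libraries and 47.0% in the others. The regions of the genome were not split by listing, so this split is not shown to be particular to the 9 genes. An E2-box was present in 9 of the 35 (25.7%, against 17.1% of all regions) and an AP-1 motif in 11 (31.4%, against 22.6%). A GAS motif was present in 1 (2.86%, against 6.57%) and the ETS motif in 1 (2.86%, against 0.991%). Among 35116 RefSeq promoter windows of 300 bp, 20.6% held an E2-box and 7.71% an AP-1 motif. A match is a description of the letters and not evidence of binding.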

How the data were processed

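The study's methods state that the authors used Trimmomatic 0.3 for trimming and Bowtie2 2.3.4.1 for alignment to GRCh38, removed low-quality alignments and duplicates, and called peaks with MACS2 2.1.2 at a q-value cutoff of 0.05. Whether a list is from 1 replicate or pooled ones, whether it was made before or after the IDR filter, and whether tags were shifted for the transposase, was not given in the sources used here. Each deposited list holds, per peak, a score, a fold enrichment (a ratio), and −log10 p and −log10 q.

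The whole-number summit pileup and background that give both fold and −log10 p were recovered for every peak. Tag density was the background divided by the shortest peak (249 to 274 bp). Peaks sharing 1 bp were joined, and pileups compared with exact 95% intervals for counting error. Pileup recovery and calls were tested on simulated data. The 9 genes and both wider lists were chosen with earlier results of these data known. Named were all 9 genes and, from each wider list, up to 4 genes with the largest ratios of like direction in both FLI1-KO to WT comparisons and up to 3 with a promoter region in some libraries by pileup; genes called in a comparison were added after their values were seen. RefSeq (GRCh38.p14) promoter windows, 12 of them at 5 of the 9 genes, served only for motif shares. Alternatives were stricter q limits and other windows, overlaps, list sizes and centring. Python 3.11.15, SciPy 1.17.1, pandas 2.3.3 and GENCODE 44 were used.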

Additional observations from a re-analysis of the deposited data

Results flagged for a closer look

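For each of these results the 2 arms of a contrast pointed in opposite directions; with 1 library per group the difference between arms was not tested. Counted over the 9 genes, the change in listed peaks with IFN-γ was 6 for WT and -2 for FLI1-KO cells, and from WT to FLI1-KO it was 2 without IFN-γ and -6 with it. The whole lists moved the same way in each of these comparisons, from 59629 to 67470 peaks with IFN-γ in WT and from 63203 to 59923 in FLI1-KO cells, so this pattern is not particular to the 9 genes. At TWIST1 the changes with IFN-γ were -1 in WT and 1 in FLI1-KO cells, and from WT to FLI1-KO they were -1 without IFN-γ and 1 with it. At VIM they were 1 and -1 with IFN-γ, and 1 and -1 between genotypes. At CDH1 the change from WT to FLI1-KO was 1 without IFN-γ and -2 with it.

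The pooled tag ratio of all 9 genes with IFN-γ was 1.07 in WT and 0.973 in FLI1-KO cells. For the transcription factor genes the values were 1.02 and 0.996, for CDH1 1.10 and 0.993, and for VIM, CDH2 and FN1 1.17 and 0.921. Between genotypes the pooled ratio of VIM, CDH2 and FN1 was 1.09 without IFN-γ and 0.875 with it. The 95% counting interval of each of these ratios held 1. The WT-IFN-γ library was the deepest of the 4 and sgFLI1-IFN-γ the shallowest, and the part of depth in the peak counts was not tested.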

How the results depend on the processing

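Of 87 alternative values for 27 results, 70 stayed within the limits set for them (1.5 times for a count, the counting interval for a ratio) and 17 moved; no pooled ratio left its interval or changed side. No paired analysis was possible because each group holds 1 library, and for the same reason no replicate could be left out. A −log10 q of at least 10 left 19 peaks at the 9 genes in WT-IFN-γ and 13 in each other library, and 50 kb upstream in place of 10 gave 37 peaks in sgFLI1-IFN-γ. With −log10 q of at least 5 in both lists, FLI1-KO cells gained 0 and lost 1 region with IFN-γ, 2 regions were listed in WT alone against sgFLI1, and 2 in sgFLI1-IFN-γ alone against WT-IFN-γ. With −log10 q of at least 5 in the listing library and no peak in the other, FLI1-KO cells gained 0 and lost 0 with IFN-γ, 3 regions were listed in sgFLI1 alone and 2 in WT alone, and with IFN-γ 2 in FLI1-KO and 5 in WT cells alone. With equal list sizes 2 regions were lost with IFN-γ in WT and 3 in FLI1-KO cells. Calls scaled within 5 Mb, added after the data were seen, left 3 of the 4 lower calls under IFN-γ between genotypes. The cause of these shifts was not tested. Listing needed 7 or 8 tags where the local background was low and up to 31 tags where it was high, which limits what can be detected in these lists.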
